A study of Mus musculus with 2 samples.

Results

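The genes described here are 37 genes of DNA replication and of the passage from G1 into S phase, read in activated mouse CD4+ T cells on subA and subB, the chips of the Affymetrix Mu11k set. They were taken as a list of names, and a probe set was used if its platform annotation gave exactly one of these names. Of the 37 genes, 34 were found, 25 on subA (33 of 6584 probe sets) and 11 on subB (12 of 6595 probe sets), with Rrm2 and Tyms on both. Cdk6, Orc1 and Pole were not analysed here, nor was 1 probe set on subB whose annotation names another gene beside Ccnd1. Both chips together carry 6137 named genes.

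Copying the genome once per cell cycle starts at origins, where the origin recognition complex and Cdc6 load the ring-shaped MCM helicase, built from Mcm2 to Mcm7. Cyclin-dependent kinases of G1 and S phase then recruit Cdc45 to the ring and let it fire, polymerase alpha with its primase starts each new strand, and the sliding clamp PCNA holds the later polymerases, the flap nuclease Fen1 and DNA ligase I on the DNA. Many of these genes, together with those of deoxynucleotide synthesis, are known targets of the E2F transcription factors, which cyclin D kinases release from retinoblastoma proteins when a T cell is stimulated to divide.

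The cells were purified CD4+ T cells from spleen and lymph node of female B10.PL mice whose transgenic T-cell receptor recognises Ac1-11, an acetylated peptide from the N terminus of myelin basic protein, and the labels give a time of 48 h and an abbreviation, TCL, that they do not spell out. The deposited arrays thus come from cells with the same transgenic receptor, and the labels give neither the age nor the number of mice. The series sets out to compare 4Y, which the labels do not describe further, with Ac1-11 as the stimulus. There is 1 array with deposited levels per chip and 1 deposited comparison against a baseline array. The baseline array is unnamed and has no sample label, so its cells are not described by one. No value has a replicate, no p-value could be computed, and precision is limited by this number of arrays. The deposited levels carry the sample label Ac1-11 but equal, for 6584 of 6584 and 6595 of 6595 probe sets, those of the experiment named 4Y in the authors' deposited table. The direction of the comparison is therefore unsettled, and values are given for the deposited array and then the baseline array.

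Levels are average differences, perfect match minus mismatch probe signal in array units, and the baseline level is the deposited level minus the deposited change. Folds, difference calls and scores of probe pairs are those of the authors' deposited table, deposited over baseline, and a fold marked there as uncertain is called approximate. A probe set was taken as detected if it was called present on the deposited array or was not marked absent on the baseline array, and each gene is represented by its detected probe set with the highest mean level. A gene counted as changed with a fold of at least 2 and a call of increase or decrease. The only measure of spread was that of log2 folds among probe sets sharing a gene, with an SD per probe set of 0.45 from 285 genes of subA and 0.62 from 51 genes of subB. This is a spread between probes and not between samples.

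On subA the bacterial spike-in controls called present were 1.5- to 2.1-fold higher on the deposited array and the Actb and Gapdh control probe sets 1.5- to 1.9-fold higher, while the median log2 fold of all 3343 detected probe sets was 0. Their part in the values below was not tested. Of the CD4 T cell markers, 4 of 4 on subA and 6 of 6 on subB were detected, and they summed to 17949 on the deposited and 16134 on the baseline array of subA, and to 102741 on the deposited and 136789 on the baseline array of subB. On subA 2 of 4 had a fold below 1 and Cd28 had a decrease call (1.6-fold lower). On subB 5 of 6 had a fold below 1, Cd3g counted as lower (2.1-fold), and Cd3d and Cd4 had decrease calls (1.8- and 1.4-fold lower). Cd8a, the NK cell gene Klrb1c and the B cell genes Cd79a, Cd22 and Ms4a1 were not detected, and neither were the macrophage genes Csf1r and Adgre1. The detected macrophage or dendritic cell markers of subA, Lyz2 and Cd68, summed to 5927 on the deposited array and 2993 on the baseline array. Lyz2 had 5294 on the deposited and 2286 on the baseline array, with a deposited fold of 6.2 higher and no difference call. Cd68 had 633 on the deposited and 707 on the baseline array (1.1-fold lower). On subB Cd14 alone was detected, with 1720 on the deposited and 2809 on the baseline array. The detected B cell markers of subA, Blk and Cd79b, summed to 1858 on the deposited and 2295 on the baseline array. The erythroid gene Hba-a1 was detected on subB by 1 of 2 probe sets, with 778 on the deposited and 1587 on the baseline array. The part of such cells in the results was not tested either.

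The promoters of these genes are shown first, because they carry a feature that the choice of genes did not use directly. Many of the genes are known E2F targets, so the shares below are not independent of that choice. RefSeq promoter windows (GRCm38.p6, 250 bases before to 50 after an annotated start site) were searched on both strands for 4 forms of the E2F site, TTTCCCGC, TTTCGCGC, TTTGGCGC and TTTGCCGC, and matches on opposite strands may overlap. At least 1 form was found for 12 of 30 genes of the list that have a window (40.0%), against 704 of 27025 genes overall (2.61%). Counted by window, a form was found in 12 of 40 and in 744 of 32851 (2.26%). The 12 genes were Cdc25a, Cdc6, Cdk2, Dnmt1, E2f3, Lig1, Mcm3, Mcm5, Mcm6, Mcm7, Pola1 and Pold1. TTTGCCGC occurred in none of the windows of listed genes. A match describes letters, not a bound site. The bases upstream of Mcm6 are printed whole because it had the largest exact fold of the list and the most matches. The region is chr1:128359706-128359955, minus strand, ends just before the start site, and has the matches in capitals.
Mcm6: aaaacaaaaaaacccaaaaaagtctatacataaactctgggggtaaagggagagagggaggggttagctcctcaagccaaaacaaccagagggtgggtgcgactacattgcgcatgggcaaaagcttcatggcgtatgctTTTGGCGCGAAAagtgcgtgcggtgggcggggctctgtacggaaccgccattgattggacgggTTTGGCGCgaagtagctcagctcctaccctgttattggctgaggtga
The first run of capitals is a pair of overlapping matches on opposite strands, beginning 110 bases before the start site, and the second is a single match beginning 47 bases before it.

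The other 7 genes detected on subA with a match are shown as stretches of 30 bases, 5′ to 3′ along the gene's strand, with the first match of the window in capitals. In Mcm5 the capitals are a pair of overlapping matches on opposite strands, of which the first is counted below. In these lines GCGGGAAA, GCGCGAAA and GCGCCAAA are reverse complements of forms searched. The stretches lie at chr5:138172030-138172059 (Mcm7, minus strand), chr9:109875501-109875530 (Cdc25a, plus), chr13:29986064-29986093 (E2f3, minus), chr10:128705173-128705202 (Cdk2, minus), chr8:75109347-75109376 (Mcm5, plus), chrX:93632275-93632304 (Pola1, minus) and chr7:13278841-13278870 (Lig1, plus).
Mcm7: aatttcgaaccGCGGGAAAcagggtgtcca
Cdc25a: ggtgaattccgTTTGGCGCcaactaggaaa
E2f3: aatatggtttgaaaagccgGCGGGAAAtct
Cdk2: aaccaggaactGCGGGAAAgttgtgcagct
Mcm5: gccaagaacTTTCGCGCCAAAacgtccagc
Pola1: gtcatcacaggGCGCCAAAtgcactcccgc
Lig1: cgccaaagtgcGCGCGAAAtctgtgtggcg
The match begins 165 bases before the start site in Mcm7, 67 in Cdc25a, 11 in E2f3, 140 in Cdk2, 153 in Mcm5 and 138 in Pola1, and 27 bases into the transcript in Lig1. E2f3, Mcm7 and Lig1 have more than 1 annotated window (2, 2 and 3), of which the one with the match is shown. The start site of a window is an annotated one and may lie inside the gene. The gene spans reach 138172111 for Mcm7 and 93632387 for Pola1, both on the minus strand, and Lig1 begins at 13277175. The stretches of these genes thus lie inside the gene, and that of Cdc25a spans the gene's first base, 109875518.

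On subA, 20 of the 23 genes detected were lower on the deposited array, most of them by little. A deposited fold below 1 was found for 87.0% of these genes and for 42.5% of all detected probe sets of the chip, and for 25 of 29 detected probe sets of the list (86.2%). A fold above 1 was found for 3 genes (13.0%, against 45.0% of detected probe sets). The median log2 fold of the 23 genes was -0.26, and their folds ran between -1.72 and 0.26 on that scale. Across the 2647 named genes detected on subA the median was 0 and the middle 50% lay between -0.38 and 0.38. Only Mcm6 and Cdc25a counted as changed, both lower, which is 2 of 23 genes (8.70%) or 2 of 29 probe sets (6.90%). The share of all 3343 detected probe sets that counted as changed was 4.46%, with 2.69% lower and 1.76% higher. Each of the 23 folds lay below the lowest fold of the spike-in controls, 1.5. The upper quartile of named genes, 0.38 as a log2 fold, lay below it as well, so the list is not set apart by this. In 15 of 23 genes the fold lay within the SD between probe sets of 1 gene. The 8 beyond it were Mcm6, E2f3, Cdc25a, Tk1, Mcm7, Rrm1, Mcm4 and Cdk2, all lower. The share of all detected genes beyond this SD of 0.45 is not given here. The lower quartile of named genes, -0.38, is close to that limit, and whether the 8 stand apart from other genes was not tested. In RNA from a whole population, fewer cells in cycle and less RNA per cycling cell cannot be told apart.

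**Figure D1:**
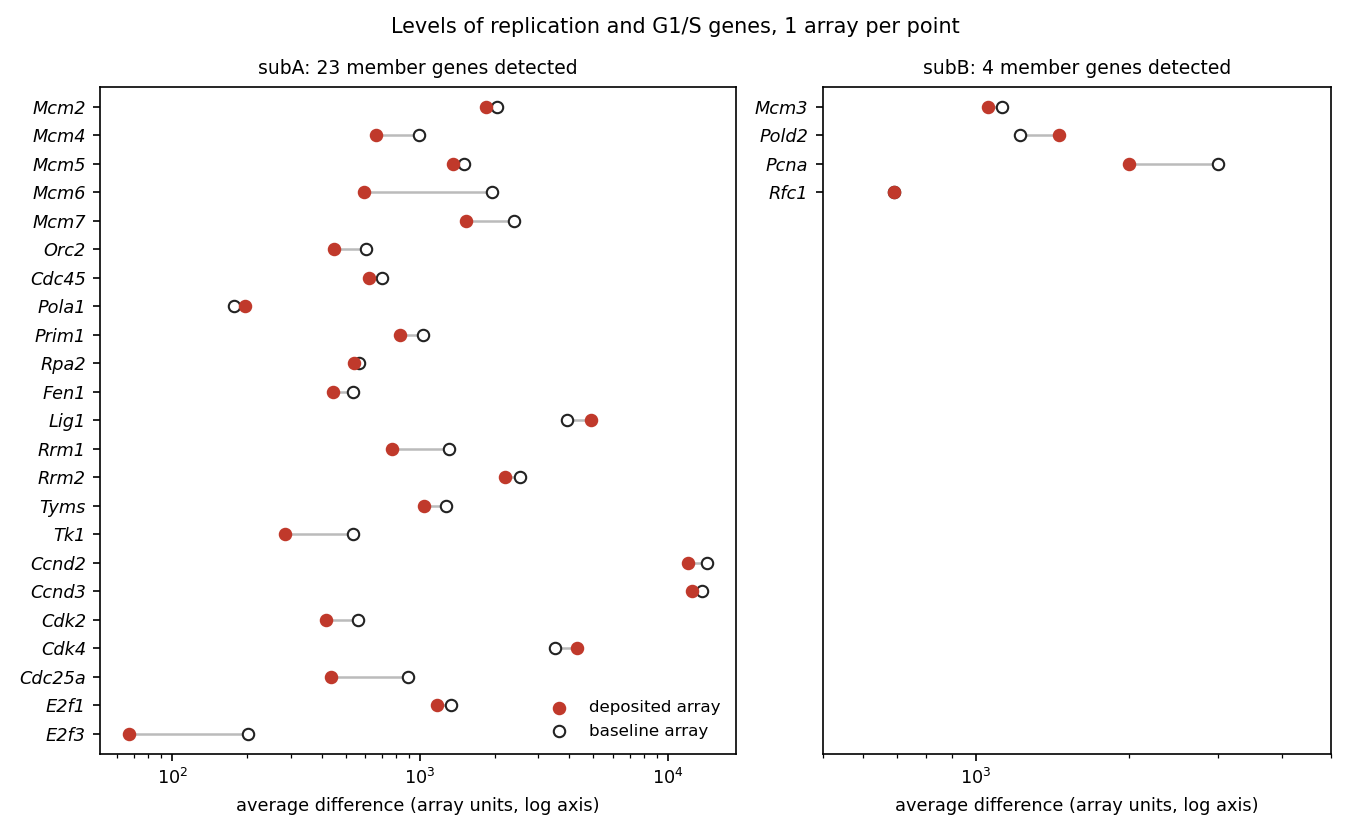
Average difference levels (array units, log axis) of the 23 genes detected on subA (left) and the 4 detected on subB (right), filled points for the deposited array and open points for the baseline array, 1 array each, genes in the order of their roles. On subA the filled point lies left of the open one for every gene but Pola1, Lig1 and Cdk4. Both Rfc1 points on subB lie at 691.

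Of the helicase genes, all 5 on subA were lower on the deposited array, with a median log2 fold of -0.58, and Mcm6 counted as changed. Mcm6 had a level of 591 on the deposited array, against 1940 on the baseline array. In the authors' deposited table that is 3.3-fold lower with a decrease call, and of its 20 probe pairs 15 were scored as decreased and 1 as increased. This value is from the probe set aa689977_f_at, whose suffix marks probes that may match a family of related sequences. The other Mcm6 probe set, D86726_s_at, had levels of -155 on the deposited and -204 on the baseline array, both below 0 although it was called present, and an approximate fold of 1.5 higher with no difference call. The decrease of Mcm6 thus rests on 1 of its 2 probe sets.

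Mcm7 had a level of 1523 on the deposited array, against 2396 on the baseline array, and 7 of 20 pairs were scored as decreased and 0 as increased. The authors' deposited table gives it a decrease call at 1.7-fold lower, short of the size set here. Mcm4 had 664 on the deposited and 985 on the baseline array, 1.5-fold lower, with 4 pairs decreased, 0 increased and no call. Mcm7 and Mcm4 share the direction of Mcm6, and so do Mcm2 and Mcm5. A subcomplex of Mcm4, Mcm6 and Mcm7 is known to unwind DNA by itself, and a joint change of these genes was not tested. Mcm2 had 1847 on the deposited and 2048 on the baseline array. Mcm5 had 1350 on the deposited and 1505 on the baseline array. Both had a deposited fold of 1.1 lower, within the spread between probe sets, and for Mcm2 3 pairs were scored as increased and 1 as decreased. A difference between Mcm2 or Mcm5 and the other subunits was not tested. Mcm6 lies at 128331575 to 128359705 on chromosome 1, Mcm7 at 138164583 to 138172111 on chromosome 5 and Mcm4 at 15623897 to 15637400 on chromosome 16 (GRCm38.p6).

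The genes of origin recognition and firing differed little on subA. Orc2, a subunit of the origin recognition complex, had 448 on the deposited and 602 on the baseline array (1.3-fold lower), with 3 pairs scored each way, and its second probe set was not detected. Cdc45, the helicase cofactor, had 624 on the deposited and 698 on the baseline array by its brighter probe set (1.1-fold lower) and 329 on the deposited and 515 on the baseline array by the other, which the authors' deposited table gives as 1.6-fold lower with an absent call on the deposited array. Neither gene had a difference call.

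Of polymerase alpha and primase, which make the primer of each new strand, Prim1 and Pola1 were detected. Prim1, the catalytic primase subunit, had 831 on the deposited and 1028 on the baseline array (1.2-fold lower), with 3 pairs decreased and 2 increased. Pola1, the catalytic polymerase subunit, had 197 on the deposited and 178 on the baseline array (1.1-fold higher), with 2 pairs scored each way and a baseline marked absent. The 4 probe sets of the list that were not detected on subA were those of Pola2 and Prim2 and one each of Orc2 and E2f1, with levels of 41 to 280 on the deposited and 249 to 342 on the baseline array. Prim2 carried an approximate fold of 4.3 lower in the authors' deposited table, with 1 of 20 pairs decreased and 3 increased, so pair scores and fold pointed opposite ways for a signal not told from background.

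Among the genes that act at the moving fork, none on subA had a difference call. Lig1, the ligase that seals Okazaki fragments, had 4866 on the deposited and 3913 on the baseline array, 1.2-fold higher, with 2 pairs increased and 1 decreased. Fen1, the nuclease that trims their flaps, had 446 on the deposited and 534 on the baseline array (1.2-fold lower), and Rpa2, which coats single-stranded DNA, had 538 on the deposited and 566 on the baseline array (1.1-fold lower). Lig1 and Fen1 act in successive steps and had folds on opposite sides of 1, both within the spread between probe sets.

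All 4 genes of deoxynucleotide synthesis were lower on the deposited subA array, with a median log2 fold of -0.51 and none counted as changed. Rrm1, the large subunit of ribonucleotide reductase, had 766 on the deposited and 1310 on the baseline array. The authors' deposited table gives 1.7-fold lower and no difference call, with 8 of 20 pairs decreased and 1 increased. For Rrm2, the small subunit, the 3 probe sets had 2207, 764 and 477 on the deposited array and, in the same order, 2535, 982 and 677 on the baseline array. Their folds were 1.2, 1.3 and 1.4 lower, so the 3 probe sets gave nearly the same value, each without a call. The brightest and the dimmest, C81593_rc_f_at and C81007_rc_f_at, carry the suffix for probes that may match related sequences. The dimmest was called absent on the deposited array. Tk1, thymidine kinase of the salvage route, had 284 on the deposited array, called absent, against 535 on the baseline array. Its fold was 1.9 lower, with 3 pairs decreased and 2 increased. Tyms, thymidylate synthase, had 1038 on the deposited and 1267 on the baseline array (1.2-fold lower), with 3 pairs decreased and 2 increased. Tk1 and Rrm1 lay beyond the spread between probe sets and Tyms and Rrm2 within it.

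Of the cyclins, kinases and transcription factors of G1/S, 6 of 7 detected on subA were lower on the deposited array and Cdc25a counted as changed. Cdc25a, the phosphatase that activates Cdk2, had 436 on the deposited array, against 890 on the baseline array. In the authors' deposited table that is 2.0-fold lower with a decrease call, 9 of 20 pairs decreased and 0 increased. Its other probe set had 286 on the deposited and 362 on the baseline array, 1.3-fold lower, with 4 pairs decreased, 2 increased, no call and an absent call on the deposited array. Both Cdc25a probe sets were lower, by different amounts. The gene lies at 109875518 to 109893895 on chromosome 9 (GRCm38.p6). Cdk2 itself, the S phase kinase, had 418 on the deposited and 559 on the baseline array (1.4-fold lower), with 6 pairs decreased and 3 increased.

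The D-type cyclins and Cdk4, which act earlier in G1, differed little. Ccnd2 had 12026 on the deposited and 14323 on the baseline array (1.2-fold lower), with 0 of 20 pairs scored either way. Ccnd3 had 12479 on the deposited and 13685 on the baseline array (1.1-fold lower, 1 pair decreased), and 3088 on the deposited and 4059 on the baseline array by its other probe set (1.3-fold lower). Cdk4, their kinase, had 4289 on the deposited and 3513 on the baseline array (1.2-fold higher), again with 0 pairs scored either way. The other Ccnd3 probe set had 2 pairs scored as increased and 1 as decreased.

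E2f1, an activating E2F factor, had 1163 on the deposited and 1332 on the baseline array. Its fold was only 1.1 lower, yet 7 of 20 pairs were scored as decreased and 1 as increased, with no difference call in the authors' deposited table. E2f3, another, had 67 on the deposited and 202 on the baseline array and an approximate fold of 2.5 lower, with 3 pairs decreased, 0 increased and no call, while the ratio of its levels was 3.01. At levels this low on both arrays, the size of the E2f3 value is uncertain.

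**Figure D2:**
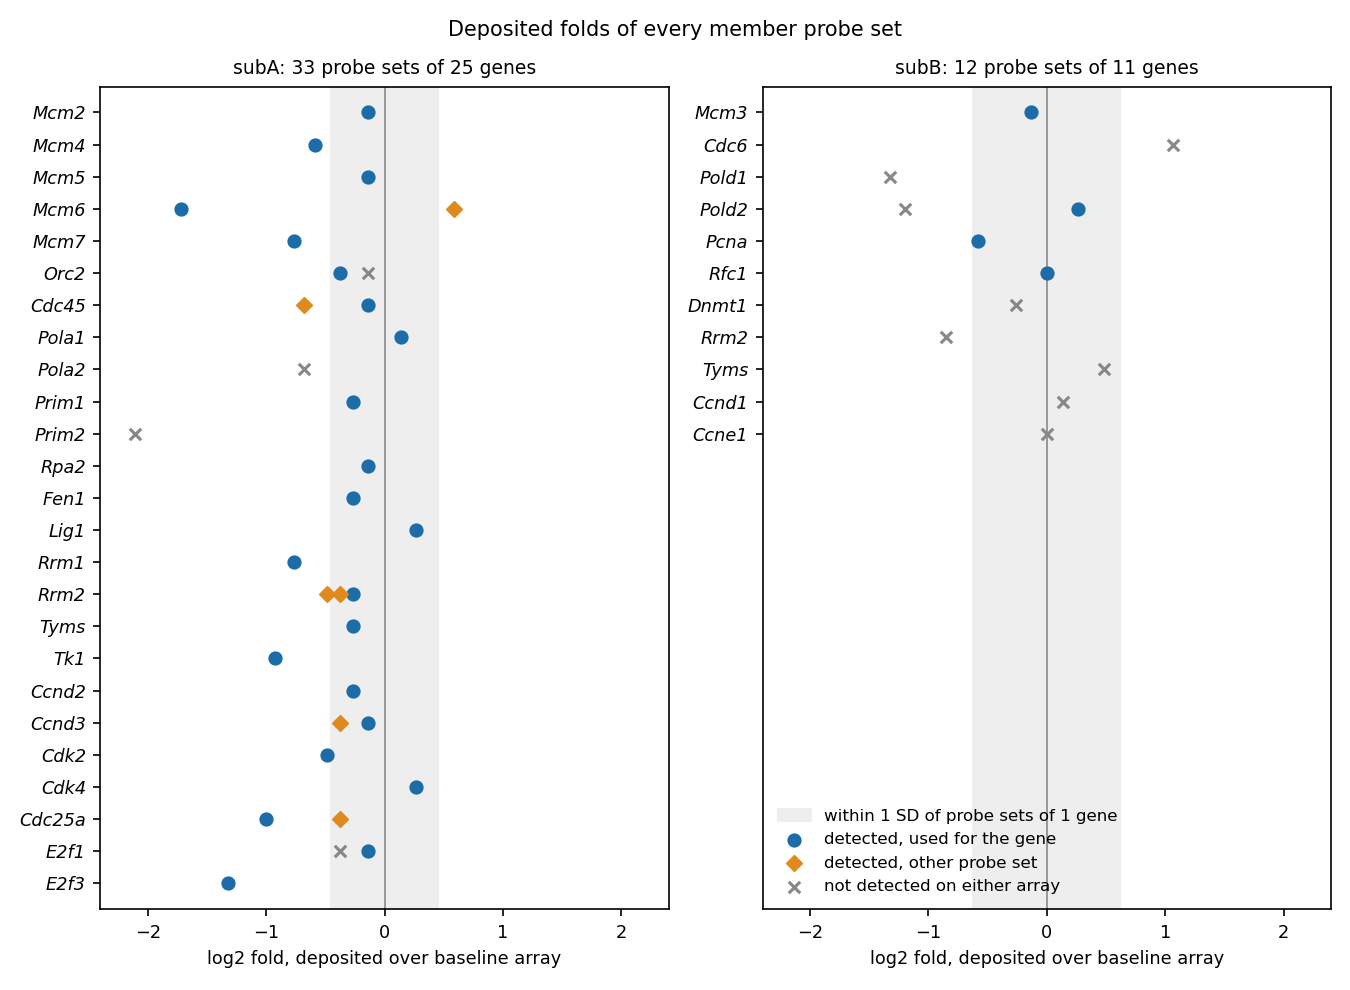
Log2 folds, deposited over baseline array, of every probe set of the list on subA (left, 33 probe sets) and subB (right, 12). Circles mark the probe set used for a gene, diamonds other detected ones, crosses those not detected, and the grey band spans 1 SD between probe sets that share a gene (0.45 on subA, 0.62 on subB). On subA 8 circles lie left of the band and none right of it, and Mcm6 has its 2 probe sets on opposite sides. The share of other genes beyond the band is not shown.

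Where a gene had several probe sets on subA, these mostly pointed the same way. The 7 such genes (Ccnd3, Cdc25a, Cdc45, E2f1, Mcm6, Orc2 and Rrm2) have 15 probe sets, including an undetected one each of Orc2 and E2f1. Of the 15, 14 had a fold below 1, the exception being the second one of Mcm6. The same held for 25 of the 29 detected probe sets of the list (86.2%) and for 42.5% of all detected probe sets. Agreement within genes is thus not told apart from the share of the whole list. Probe sets of 1 gene share the arrays and are not replicates.

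The probe pair scores, a readout that does not use the average, also leaned to decreases on subA. Summed over the 23 genes, 85 of 460 pairs were scored as decreased (18.5%) and 30 as increased (6.52%). Over all detected probe sets the shares were 12.5% decreased and 12.4% increased. More pairs were decreased than increased in 14 of the 23 genes (60.9%, against 40.9% of detected probe sets), fewer in 5 (21.7%, against 44.9%) and equally many in 4. A decrease call of any size was given to 3 of 23 genes, Mcm6, Mcm7 and Cdc25a (13.0%, against 4.37% of detected probe sets), and an increase call to 0 (against 3.14%). Those 3 genes contributed 31 of the 85 decreased pairs and 1 of the 30 increased pairs. Pairs of 1 probe set, like the genes, are read from the same pair of arrays.

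**Figure D3:**
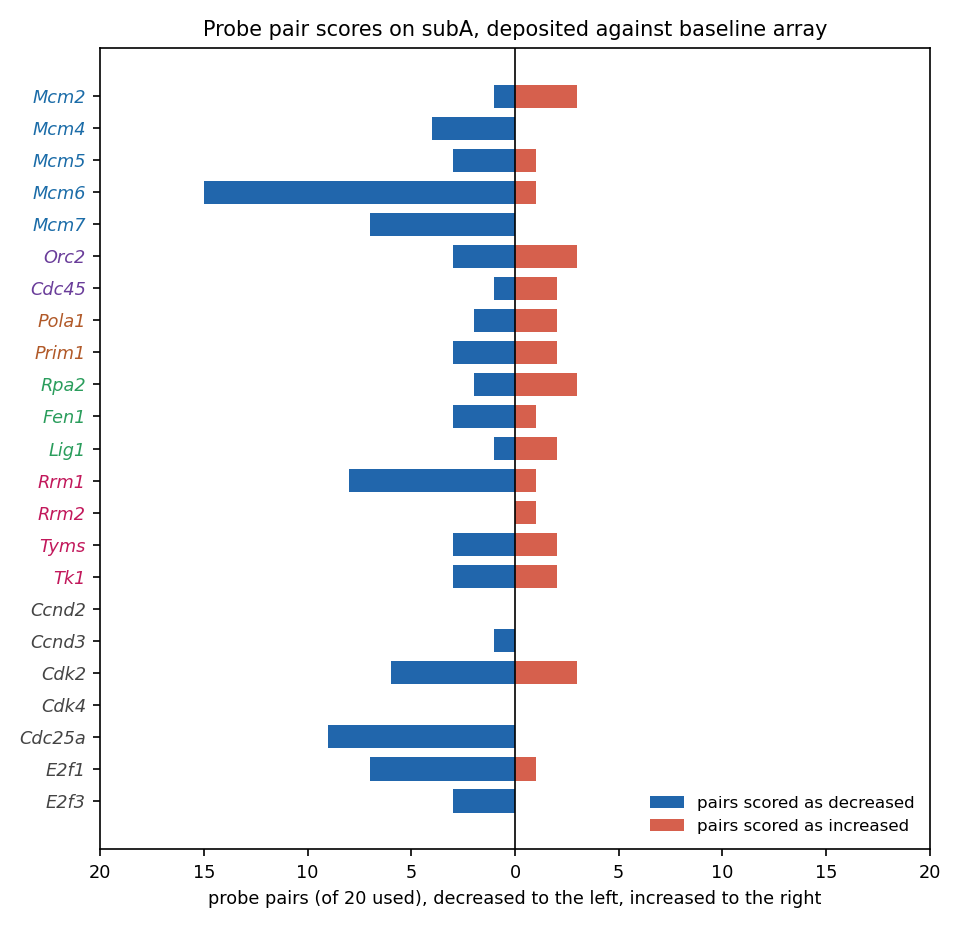
Number of probe pairs, of 20 used per gene, scored as decreased (bars to the left) or increased (bars to the right) on the deposited subA array for the 23 genes detected. Gene names are coloured by role in the order helicase, origin, polymerase alpha and primase, fork, deoxynucleotide synthesis, and G1/S. Mcm6 has 15 decreased pairs, Cdc25a 9, Rrm1 8, and Mcm7 and E2f1 7 each, while no gene has more than 3 increased.

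All 3 genes with a decrease call have E2F site letters in the windows printed above. Of the 21 genes detected on subA with a promoter window, the 8 with a match had a median log2 fold of -0.63 (6 of 8 lower) and the 13 without had one of -0.26 (12 of 13 lower). The ranges overlapped, from -1.72 to 0.26 with a match and from -0.93 to 0.26 without. The 8 with a match include Lig1 and Pola1, 2 of the 3 genes that were higher on the deposited array. Ccnd2 and Mcm4 had no window and are in neither group. They also include E2f3, with an approximate fold at low levels, and Mcm6, whose 2 probe sets differ in direction. No test was made of the difference between genes with and without a match.

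**Figure D4:**
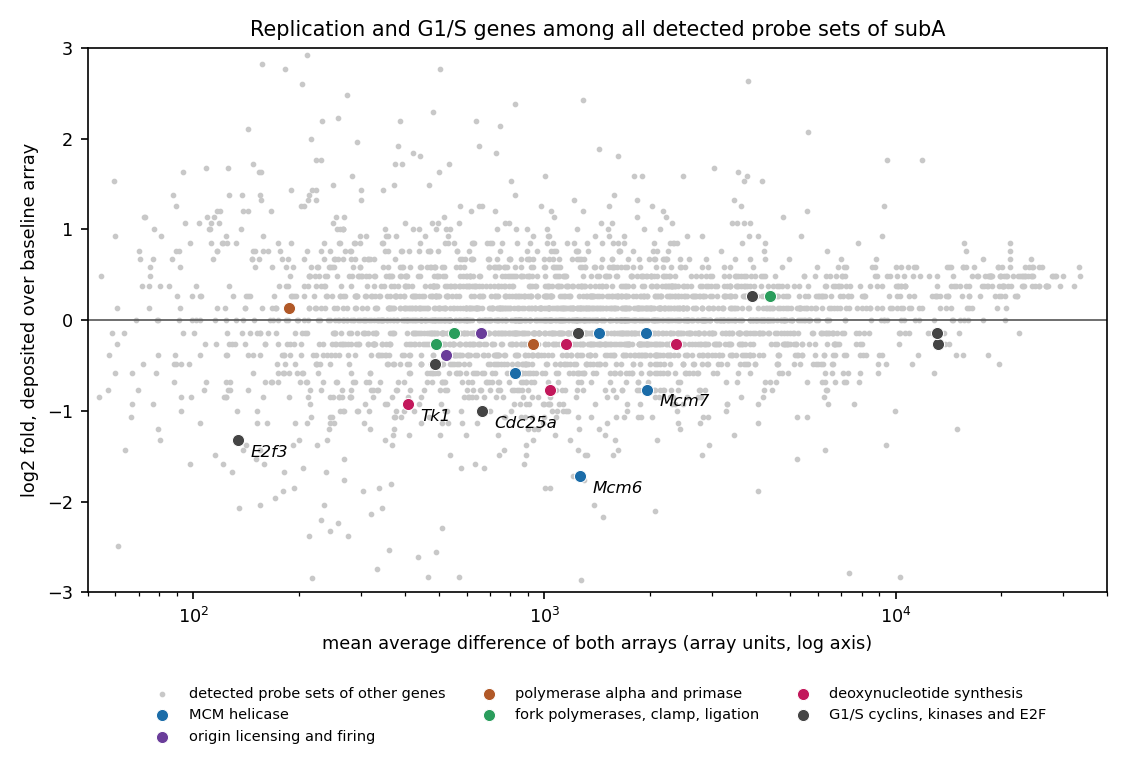
Log2 fold, deposited over baseline array, against the mean level of both arrays (array units, log axis) for the 23 genes of the list on subA (coloured by role) and for the detected probe sets of other genes (grey). Of the 3343 detected probe sets, 95 lie outside the axes. The genes of the list lie mostly between 0 and -1, within the grey cloud, with Mcm6 and E2f3 below -1.

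On subB only Mcm3, Pcna, Pold2 and Rfc1 were detected of the 11 genes it carries, and none counted as changed (0 of 4, against 6.23% of 1813 detected probe sets). A decrease call was given to 0 of 4 (against 3.14% of detected probe sets) and an increase call to 0 of 4 (against 5.79%). Pcna, the sliding clamp, had 2005 on the deposited and 2996 on the baseline array. The authors' deposited table gives 1.5-fold lower, with 4 of 20 pairs decreased and 0 increased. Mcm3, the sixth helicase subunit, had 1055 on the deposited and 1128 on the baseline array (1.1-fold lower), with 2 pairs scored each way. Pold2, the small subunit of polymerase delta, had 1456 on the deposited and 1223 on the baseline array (1.2-fold higher), with 5 pairs scored each way. Rfc1, the large subunit of the clamp loader, had 691 on both arrays, 5 pairs scored each way and a baseline marked absent. Of these 4 genes only Pcna had unequal pair scores. The 4 log2 folds had a median of -0.07 and all lay within the SD between probe sets on this chip. A deposited fold below 1 was found for 2 of the 4, against 47.8% of detected probe sets.

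The other 7 genes of subB, Ccnd1, Ccne1, Cdc6, Dnmt1, Pold1, Rrm2 and Tyms, and the second Pold2 probe set were not detected on either array, with levels of -607 to 2541 on the deposited and -204 to 2264 on the baseline array. The highest of these was Ccnd1, cyclin D1, with 2541 on the deposited and 2264 on the baseline array, with 2 pairs scored each way. Ccne1, the cyclin that activates Cdk2 at the start of S phase, had 1034 on the deposited and 960 on the baseline array, and Dnmt1, which copies DNA methylation to new strands, had 710 on the deposited and 880 on the baseline array, in both cases with an absent call. Cdc6, which loads the helicase, had 236 on the deposited and -204 on the baseline array, with 7 pairs increased and 4 decreased. All were called absent, on a chip where 35.5% of all levels lie below 0, against 20.8% on subA.

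Other genes of the pathway, taken from lists that leave out the genes above, held 2 that counted as changed on subA, where 4.46% of all detected probe sets did and 42.5% had a fold below 1. Of 13 other replication factors detected on subA, such as licensing factors and small polymerase subunits, 8 had a fold below 1 and 5 above, 0 counted as changed, and the median log2 fold was -0.14. Of 12 genes of nucleotide supply and chromatin assembly, 10 had a fold below 1 and 1 above, 0 counted as changed, and the median was -0.32. Among 12 other regulators of G1/S, 5 had a fold below 1 and 5 above, with a median of 0. Of these, Rbl2, a retinoblastoma family protein that represses E2F targets, counted as higher, with 4776 on the deposited and 2055 on the baseline array (2.1-fold in the authors' deposited table, 13 of 20 pairs increased). Cdkn2a, which encodes inhibitors of Cdk4 and of Mdm2, counted as lower, with 46 on the deposited and 1250 on the baseline array. Its fold of 14.3 lower is approximate. The deposited level was called absent, so Cdkn2a passed as detected only through the baseline array, and the size of its fold is uncertain. On subB 0, 2 and 2 genes of the same lists were detected and 0 counted as changed.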

How the data were processed

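RNA of CD4+ T cells was hybridised to both chips of the Mu11k set, 1 array per chip. The levels are intensity values (average differences) as deposited by the authors, and folds, calls and probe pair scores come from comparison tables whose columns, per the file headers, are those of Affymetrix software. Its version, scaling and noise settings are not given in the sources used here. Baseline levels were computed as level minus change. For the 22 exact folds of genes used on subA, the deposited log2 fold and the log2 ratio of levels differed by at most 0.11. Control probe sets (55 per chip) were not used for members or background. Columns of other samples numbered 0. Genes were named through the platform annotation and located, with promoters, through RefSeq (GRCm38.p6).

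With 1 array per condition no test was made, and lists are described by counts and medians beside all detected probe sets. The genes and lists were chosen with earlier results of these data known. All genes of the list are named, and genes of other lists by rule only if they counted as changed. Cell type markers are an exception, as are Hat1, Top1 and Rb1, which were named after their values were seen. Alternatives were other fold thresholds (1.5 and 3), calls and detection rules, centring, floors of 20 and 100, other probe sets per gene, approximate folds left out, and subtraction of the running median of 300 probe sets in order of level. Procedures were run on simulated data whose difference calls were set from the simulated folds. That checks the code and not the reliability of the calls in these data. Python 3.11.15, pandas 2.3.3, NumPy 2.4.6 and matplotlib 3.10.9 were used.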

Additional observations from a re-analysis of the deposited data

How the results depend on the processing

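On subA, 20 genes had a fold below 1 with the rules used and 19 to 22 under the 9 alternatives. The median log2 fold stayed at -0.26 under all 9. Centring is among the alternatives on both chips but could not move a value, since the chip median it subtracts was 0. The count of changed genes was 2 and ran between 1 (fold threshold of 3, Mcm6 alone) and 3 over 8 alternatives. With no filter on presence, 5 of 11 genes on subB had a fold below 1, against 2 of 4 with the filter, since more genes enter. The median on subB ran between -0.14 (running median removed) and 0 (no filter on presence), and the count of changed genes was 0 under all 8 alternatives. No paired analysis was possible because each chip has 1 array and 1 comparison, and no array could be left out for the same reason. Low signal over background limits the values of E2f3, Pola1 and the genes not detected.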

Other observations

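Rrm2 and Tyms, the 2 genes of the list that both chips carry, were set side by side. Rrm2 had folds of 1.2 to 1.4 lower by its 3 probe sets on subA and 1.8 lower on subB, where its levels of 671 on the deposited and 1201 on the baseline array were called absent. Tyms was 1.2-fold lower on subA, and its subB levels were 0 on the deposited and -166 on the baseline array, with an approximate fold of 1.4 higher. As neither gene was detected on subB, the list holds no gene measured above background on both chips.

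Outside the list, and named because their values were seen, Hat1, a histone acetyltransferase that acts on newly made histone H4, and Top1, DNA topoisomerase I, had marginal decrease calls on subA. Hat1 had 337 on the deposited and 728 on the baseline array, 2.2-fold lower in the authors' deposited table with 11 of 20 pairs decreased, by 1 of its 2 probe sets, while the other had 474 on the deposited and 424 on the baseline array and was not detected. Top1 had 2165 on the deposited and 3575 on the baseline array, 1.7-fold lower with 7 pairs decreased and 2 increased. Rb1, the retinoblastoma gene, likewise named because its value was seen, had an increase call at 1.9-fold, with 1999 on the deposited and 1055 on the baseline array and 10 of 20 pairs increased.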
